A study of Mus musculus with 8 samples.

Results

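The oligoadenylate synthetase family is represented here by 5 mouse genes, Oas1a, Oas2, Oas3, Oasl1 and Oasl2. They were chosen by gene name out of 32249 genes listed in the deposited tables, with earlier results of these data known. The other Oas1 paralogues are not among the 5 and are given further below. All 5 were listed, and all 5 passed the filter on low counts that left 10422 genes in the test. The data are single-cell RNA counts of bone marrow cells from C57Bl/6J mice, made with the HIVE platform, which captures single cells in microwells and tags each RNA molecule with a unique molecular identifier (UMI). In the 4 CYR61 libraries, marrow from hind limbs was grown for 3 days with M-CSF, a growth factor that drives macrophage formation, and then held for 24 h with CYR61 at 4 µg/mL. CYR61 is a secreted matrix protein that binds integrins. The 4 control libraries had the same culture without the protein. In both groups the mice are described as male and 10 weeks old, and the labels do not say whether replicates came from separate animals or cultures, so p-values measure the spread between libraries.

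Oligoadenylate synthetases bind double-stranded RNA and make short 2'-5' linked chains of adenosine, called 2-5A. 2-5A is a messenger molecule within the cell, made in answer to virus infection, and its action limits virus growth. The genes are classic targets of interferon signalling, in which receptors act through the kinases JAK1 and TYK2 on a transcription factor complex that includes STAT2 and IRF9, and macrophages are known to carry this response. Oas1a encodes the short form of the enzyme. Oas2 and Oas3 encode longer proteins with repeated synthetase units. Oasl1 and Oasl2 add ubiquitin-like domains, and in the mouse Oasl2 keeps synthetase activity while Oasl1 lacks it.

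All 5 genes lie on chromosome 5 in 2 groups (GENCODE vM21 on GRCm38, the build that the submitters' notes call mm10). Oasl2 spans 114896936 to 114912234 and Oasl1 114923240 to 114937915, both on the plus strand. Oas2 spans 120730333 to 120749853, Oas3 120753098 to 120777661 and Oas1a 120896256 to 120907521, all on the minus strand. The Oas1 paralogues lie between Oas3 and Oas1a or next to Oas1a. The 12 nearest tested genes outside the groups, 3 on each side of each, had log2 fold changes of -0.24 to 0.38, and none passed the test (edgeR, lowest adjusted p = 0.988).

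The promoter table from RefSeq (GRCm38.p6) held 4 of the 5 genes. Oas2 was not among them. The interferon-stimulated response element, to which the complex with STAT2 and IRF9 binds, was searched on both strands in the 250 bases before the start, as GAAA, any 2 bases and GAAA again. This pattern was present in that stretch of 2.98% of 32851 promoters in the table. It was found in Oas1a at -20 and -14 from the start and in Oas3 at -75. It was also found in the paralogue Oas1g at -18 and -12, and on the other strand in Oas1c. It was not found in the windows of Oasl1 and Oasl2. A second pattern, TTCNNNGAA, the general form of the sites bound by STAT proteins, was in 7.02% of promoters and, among the members, in Oas1a at -98. The 150 bases before the start are shown for Oas1a, its near copy Oas1g and Oas3, because these carry the response element on the gene's own strand. Capitals mark every match of the response element. In Oas1a and Oas1g a pair of matches overlaps, so the capitals run on.
Oas1a promoter, chr5:120907526-120907675, minus strand: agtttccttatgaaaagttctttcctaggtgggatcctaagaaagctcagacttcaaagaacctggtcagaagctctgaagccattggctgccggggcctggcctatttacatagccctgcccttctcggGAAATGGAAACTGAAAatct
Oas1g promoter, chr5:120887614-120887763, minus strand: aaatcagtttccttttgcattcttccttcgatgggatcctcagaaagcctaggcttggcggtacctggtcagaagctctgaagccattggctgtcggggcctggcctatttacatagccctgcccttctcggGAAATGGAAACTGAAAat
Oas3 promoter, chr5:120777660-120777809, minus strand: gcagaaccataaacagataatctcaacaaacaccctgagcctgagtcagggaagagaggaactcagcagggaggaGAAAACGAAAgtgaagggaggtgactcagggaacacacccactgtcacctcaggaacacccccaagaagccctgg

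Before the results, 3 features of the libraries need stating. Many barcodes recurred between tables of the same date stamp (replicates 1 and 2 carried the earlier stamp in both groups, 3 and 4 the later), and 75.5% of the UMIs of kept cells in control replicate 2 came from barcodes that were deeper in a CYR61 library. Cells were therefore counted only in the table of their date where they had most UMIs, called their home library, which left 9196 of 12848 cells, of which 2791 (30.4%) were still listed elsewhere on that date. There were 1971, 3604, 499 and 1065 home-library cells in CYR61 replicates 1 to 4 and 1058, 315, 294 and 390 in control replicates 1 to 4, with 842528 to 13933610 UMIs per library and medians of 789 to 1595 UMIs per cell. The home-library cells listed in no other table of their date held 176939 to 2779184 UMIs per library. Barcodes listed elsewhere thus supplied most of the tested UMIs in every library but control replicate 1. Against the label male, Xist RNA reached 1152 to 1249 CPM (UMI counts scaled to a common total per library) in CYR61 replicates 1 and 2 and control replicates 2 and 3, and at most 1.16 CPM in the others, which held Y-linked RNA. Macrophage markers such as Csf1r and Lyz2 summed to 11303 to 15815 CPM in CYR61 and 8476 to 12881 CPM in control libraries. Of the 9 macrophage markers 2 rose, Fcgr1 and C1qa, beside 1.12% of all genes tested. Markers of plasmacytoid dendritic cells, a known source of interferon, summed to 463 to 891 CPM in CYR61 and 163 to 284 CPM in control libraries. Nearly all of this was Bst2, which rose and is itself interferon-induced, and Tcf4. The defining marker Siglech had 5, 25, 0 and 0 UMIs in CYR61 replicates 1 to 4 and 0 in control libraries. The control libraries together held fewer UMIs, 6459768 against 26734969 in CYR61. B cell markers summed to 2.61 to 6.57 CPM in CYR61 and 8.97 to 36.8 CPM in control libraries, and 1 of them, Ighm, fell. The part of these cells in the results was not tested. Markers of T and NK cells summed to at most 0.535 CPM in CYR61 and 0.997 CPM in control libraries. Cells with at least 2 of the neutrophil granule genes Ngp, Ltf and Camp made up 0.558% to 12.8% of cells in CYR61 and 0.340% to 6.43% in control libraries. Their part of the UMIs was larger and uneven. They held 499594 of 1149043 UMIs in CYR61 replicate 3 and 112164 of 13933610 in CYR61 replicate 2. In controls they held 1223869 of 3436577 UMIs in replicate 1 and 26995 of 842528 in replicate 3.

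Oas RNA was higher in CYR61 than in control cultures for all 5 genes. The 5 together summed to 401, 371, 482 and 579 CPM in CYR61 replicates 1 to 4, against 35.5, 82.4, 55.8 and 39.9 CPM in control replicates 1 to 4. That is 458 ± 93.0 against 53.4 ± 21.2 CPM (SD, n = 4 each), or 8.58-fold. The highest control library thus lay far under the lowest CYR61 library. All 5 members were called higher with CYR61 by edgeR's quasi-likelihood test at a Benjamini-Hochberg adjusted p under 0.05, a call made for 1.12% of the 10422 genes tested. A further 0.0384% were called lower, and no member was among them. The groups did not overlap for any member, as for 2.87% of genes tested with CYR61 higher. The median log2 fold change was 3.51 over the members and -0.02 over all genes tested.

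Oas1a, the short synthetase, had 81.3, 84.1, 59.2 and 60.7 CPM in CYR61 replicates 1 to 4, against 5.82, 28.0, 26.1 and 10.97 CPM in control replicates 1 to 4. In each group the 2 higher libraries were the Xist libraries. The mean was 71.3 ± 13.2 CPM with CYR61 and 17.7 ± 11.01 CPM in control, a log2 fold change of 2.14 (SE 0.42, edgeR adjusted p = 0.0238). With the Xist and Y libraries as a block it was 2.26 (SE 0.29, edgeR adjusted p = 0.000173). Oas1a had the lowest log2 fold change of the 5. Its call was lost without CYR61 replicate 1 (adjusted p = 0.0538), CYR61 replicate 4 (0.0633) or control replicate 4 (0.0836) in the edgeR test. Of the 50-base windows of its transcript, 57.6% also occur in Oas1g transcripts, and 56.1% of those in the last 500 bases do, so reads of these genes could be split between them. With the counts of Oas1a and Oas1g summed, the log2 fold change was 2.24 (edgeR adjusted p = 0.0387). The other 4 members shared no such window with another Oas gene.

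Oas2, one of the longer synthetases, had 58.0, 53.8, 41.8 and 78.1 CPM in CYR61 replicates 1 to 4. In control replicates 1 to 4 it had 7.86, 17.0, 3.56 and 4.99 CPM. Control replicate 2 stood highest among controls and still lay under every CYR61 library. The means were 57.9 ± 15.1 CPM with CYR61 and 8.35 ± 6.03 CPM in control, a log2 fold change of 2.81 (SE 0.38, edgeR adjusted p = 0.00170). It passed without each library in turn.

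Oas3, the longest of the enzymes, had 39.9, 31.9, 85.3 and 92.8 CPM in CYR61 replicates 1 to 4, against 7.57, 3.40, 0 and 2.99 CPM in control replicates 1 to 4. The CYR61 libraries of the later date stamp had over 85 CPM and those of the earlier one under 40 CPM. The log2 fold change was 3.86 (SE 0.56, edgeR adjusted p = 0.00264), from means of 62.5 ± 31.0 CPM with CYR61 and 3.49 ± 3.11 CPM in control. Control replicate 3 held no Oas3 UMI in 294 cells, which allows a share of cells with a UMI of up to 1.02%.

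Oasl2 had 213, 191, 281 and 299 CPM in CYR61 replicates 1 to 4, against 13.4, 33.1, 26.1 and 18.9 CPM in control replicates 1 to 4. Both sets were narrow beside the gap between them. Oasl2 had the smallest adjusted p of the family, 8.47e-05, at a log2 fold change of 3.51 (SE 0.29, edgeR), with means of 246 ± 52.0 CPM with CYR61 and 22.9 ± 8.58 CPM in control.

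Oasl1, which lacks synthetase activity and in the mouse is known to restrain translation of Irf7, was the scarcest in UMIs. It had 9.23, 9.55, 14.8 and 48.1 CPM in CYR61 replicates 1 to 4, against 0.873, 0.849, 0 and 1.99 CPM in control replicates 1 to 4. CYR61 replicate 4 stood well above the other CYR61 libraries. The control values rest on 6 UMIs in all, and the CYR61 values on 403. The log2 fold change was 4.43 (SE 0.82, edgeR adjusted p = 0.0161), and the ratio of pooled counts was 16.2 (exact 95% interval 7.39 to 44.5, counting error only). The call was lost without CYR61 replicate 4 (log2 fold change 3.54, edgeR adjusted p = 0.0702) and without control replicate 1 (0.118), 2 (0.0715) or 3 (0.0563).

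**Figure D1:**
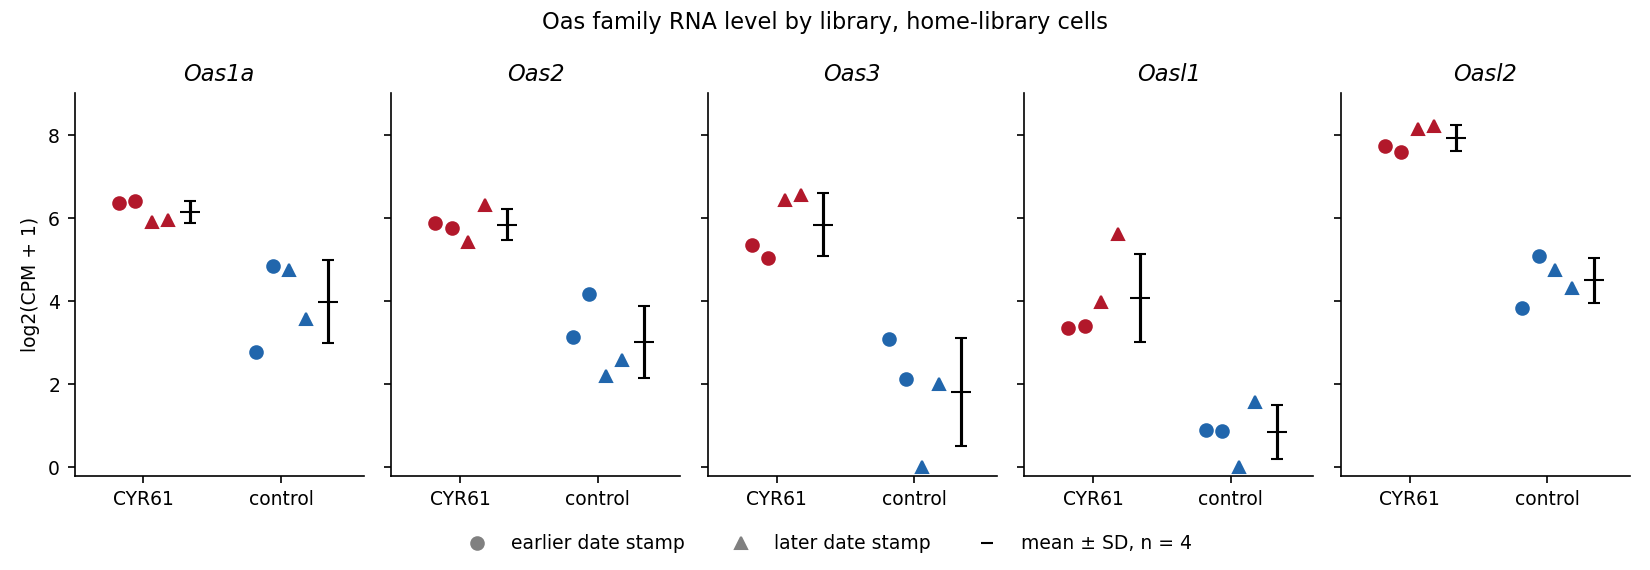
RNA level of each Oas gene by library, as log2(CPM + 1) over home-library cells, with CYR61 libraries in red left of control libraries in blue. Circles are the earlier and triangles the later date stamp, and bars give the mean ± SD of the plotted log2 values (n = 4 each). No control library reaches a CYR61 library in any of the 5 panels, and the Oas3 triangles (85.3 and 92.8 CPM) lie above the Oas3 circles (39.9 and 31.9 CPM) with CYR61.

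Within each date stamp all 5 members were higher with CYR61, although the calls were fewer with 2 libraries a group. In the earlier libraries the log2 fold changes were 2.71 for Oas1a, 2.45 for Oas2, 2.64 for Oas3, 3.51 for Oasl1 and 3.41 for Oasl2. Only Oasl2 passed there (edgeR adjusted p = 0.0277), and the other 4 had adjusted p of 0.0507 to 0.0874. In the later libraries they were 1.68 for Oas1a, 3.76 for Oas2, 5.70 for Oas3, 4.79 for Oasl1 and 3.66 for Oasl2. Oas2, Oas3 and Oasl2 passed in that pair, while Oas1a (adjusted p = 0.299) and Oasl1 (0.0795) did not in edgeR. The difference of the CYR61 effect between the stamps was largest for Oas3, at 3.10 on the log2 scale, later minus earlier (edgeR interaction, adjusted p = 0.396). It was -0.89 for Oas1a, 1.41 for Oas2, 1.37 for Oasl1 and 0.33 for Oasl2, with edgeR adjusted p of 0.542 to 0.841. No gene of the 10422 (0%) passed the interaction test in edgeR, and 1055 had an unadjusted p under 0.05. In CYR61 the later libraries were the Y libraries and the earlier ones the Xist libraries, so date and Xist status cannot be told apart within that group.

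The barcodes shared between groups are described here for the same genes, without a test. Barcodes kept in 1 group's table but deeper in a table of the other group were left out of the home-library counts. In control replicates 2, 3 and 4 such barcodes held 308, 403 and 383 CPM of the 5 members, against 82.4, 55.8 and 39.9 CPM in the home-library cells of those replicates. In CYR61 replicates 1, 2 and 3 the barcodes deeper in a control table held 98.1, 104 and 99.1 CPM, against 401, 371 and 482 CPM in the home-library cells. The barcodes thus had family levels nearer to those of the group where they were deeper. They were picked because the same barcodes were deeper there, so these levels are no independent measure of the CYR61 difference. CYR61 replicate 4 and control replicate 1 had few such barcodes, with 1 family UMI each. With all kept cells counted in every table, which restores these barcodes and also those deeper in the other library of the same group, the log2 fold changes of the members were 1.34 to 1.92, and none passed (edgeR adjusted p = 0.9999 each).

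**Figure D2:**
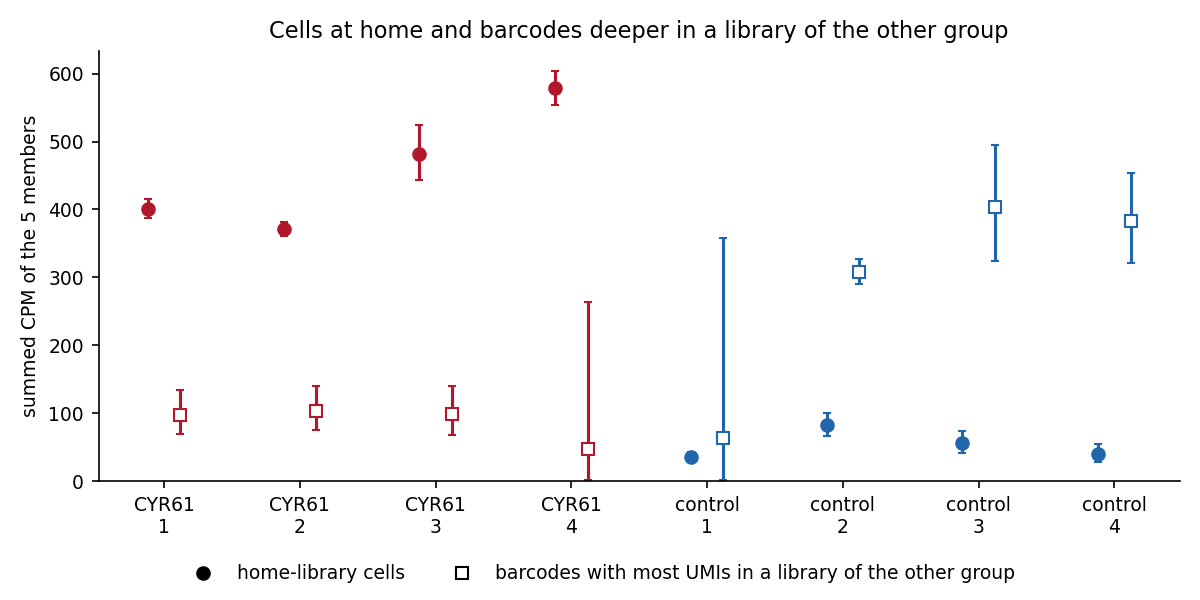
Summed CPM of the 5 members in each library, in home-library cells (filled circles) and in kept barcodes that had most UMIs in a library of the other group (open squares), with exact 95% Poisson intervals for counting error. The squares of control replicates 2 to 4 (308 to 403 CPM) lie well above the circles of those libraries, and the squares of CYR61 replicates 1 to 3 (98.1 to 104 CPM) lie well below theirs.

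More cells carried Oas UMIs in CYR61 libraries. To set depths equal, the share of cells expected to show a member was computed after thinning each cell to 500 UMIs, which left out 6 to 86 shallower cells per CYR61 library and 11 to 62 per control library. At that depth 17.1%, 15.7%, 19.1% and 22.3% of cells showed a UMI of any member in CYR61 replicates 1 to 4. In control replicates 1 to 4 it was 1.06%, 2.41%, 1.94% and 1.81%. The mean was 18.6% ± 2.88 with CYR61 and 1.81% ± 0.560 in control (SD, n = 4 each, exact two-sided permutation p = 0.0286, the smallest that 4 libraries against 4 can give). Without thinning it was 44.8% ± 5.63 with CYR61 and 9.71% ± 3.66 in control.

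Oasl2 was the member seen in most cells, in 10.2% ± 1.94 of thinned CYR61 cells and 0.852% ± 0.333 of thinned control cells. Oas1a was seen in 3.79% ± 0.503 with CYR61 and 0.594% ± 0.449 in control. Oas2 was seen in 2.52% ± 0.441 with CYR61 and 0.222% ± 0.0876 in control. Each of these 3 shares was higher in every CYR61 library than in any control library (exact permutation p = 0.0286, adjusted 0.0286 over the 5 members, n = 4). Oas3 reached 2.64% ± 1.14 with CYR61 and 0.130% ± 0.128 in control, and Oasl1 0.761% ± 0.641 with CYR61 and 0.0214% ± 0.0231 in control. The same exact permutation test gave p = 0.0286 for both (n = 4). At this depth the control shares of Oas2, Oas3 and Oasl1 correspond to a few cells of a library or to less than 1 cell, so the sizes of these 3 differences are not read. No cell type known to lack Oas RNA was numerous enough to give a background share. Barcodes with under 100 genes, too shallow to be kept as cells, had 53.8, 174, 464 and 387 CPM of the family in CYR61 replicates 1 to 4 and at most 41.5 CPM in control replicates. The part of free RNA in the shares was not tested.

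**Figure D3:**
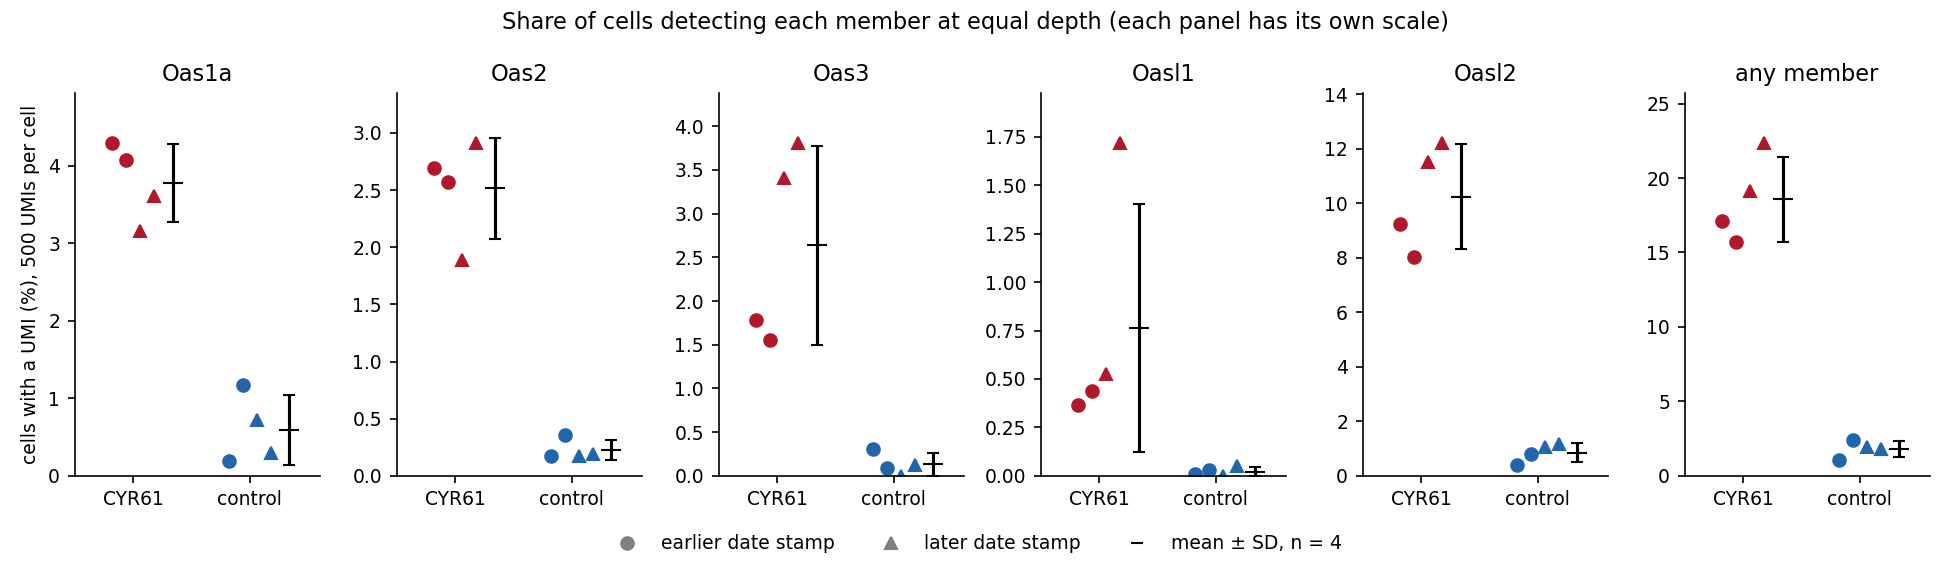
Percent of cells expected to hold at least 1 UMI of each member, and of any member, after thinning to 500 UMIs per cell, by library, with CYR61 left of control and bars for mean ± SD (n = 4 each). Each panel has its own scale. For any member the CYR61 libraries range from 15.7% to 22.3% and the control libraries from 1.06% to 2.41%.

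Cells that held several members were deeper than cells that held none. Cells with UMIs of at least 2 members made up 21.2%, 22.4%, 12.4% and 20.4% of cells in CYR61 replicates 1 to 4 and 1.70%, 4.13%, 2.72% and 0.513% in control replicates 1 to 4. All 5 members were found together in 13, 17, 2 and 19 cells of CYR61 replicates 1 to 4 and in 0 control cells. The cells with 2 or more members had medians of 7148 to 10995 UMIs in CYR61 libraries, and the cells with none 661 to 1015. Over the 10 pairs of members, cells with both were 2.20, 1.999, 2.61 and 2.55 times as many as independence predicts in CYR61 replicates 1 to 4. Pairs of a member and a macrophage marker gave 1.35, 1.30, 1.55 and 1.55 in the same cells. At 500 UMIs per cell the member pairs gave 1.16, 1.10, 1.06 and 0.993, and the marker pairs 1.02 to 1.05. At equal depth the ratio for member pairs thus had a mean of 1.08 ± 0.068 (SD, n = 4). Summed over the 10 pairs, independence predicted only 21.1, 33.8, 5.58 and 19.6 cells with both in CYR61 replicates 1 to 4. Such numbers are too small to show that the members are independent. The control libraries held under 1 expected cell with both members at that depth, and no ratio is read from them.

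**Figure D4:**
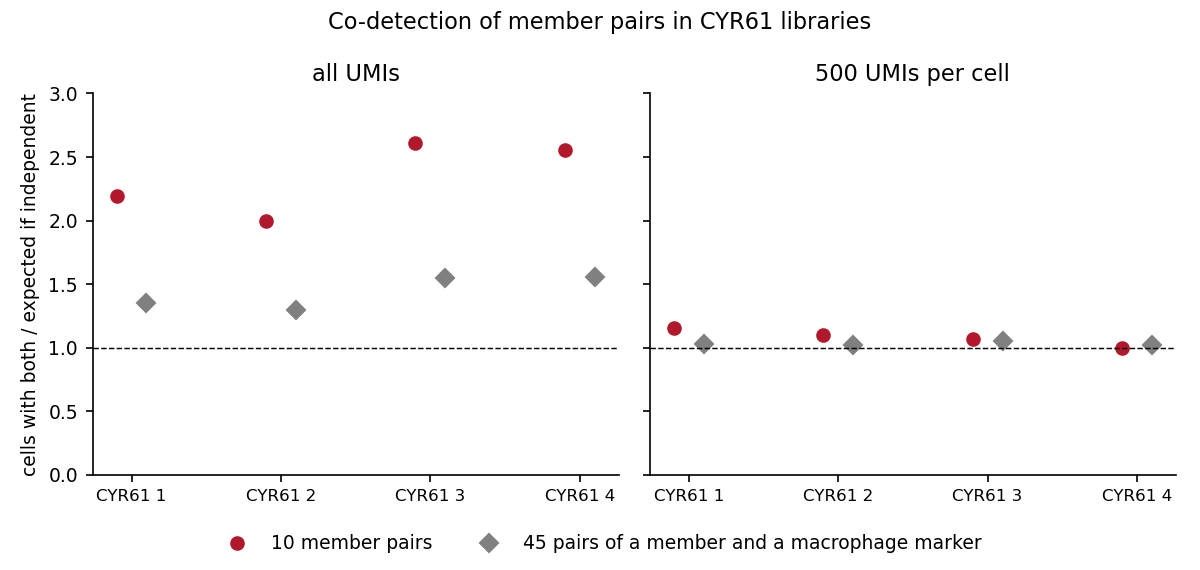
Ratio of cells with both genes to the number expected if they were independent, summed over the 10 pairs of members (red circles) and over 45 pairs of a member and a macrophage marker (grey diamonds), in each CYR61 library. The left panel uses all UMIs, where member pairs reach 1.999 to 2.61, and the right panel 500 UMIs per cell, where they fall between 0.993 and 1.16. The dashed line marks independence.

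The make-up of the family's UMIs was set side by side as well, without correction for transcript length. Oasl2 held 53.7% ± 3.16 of family UMIs in CYR61 libraries and 43.1% ± 4.85 in control libraries (exact permutation p = 0.0286, adjusted p = 0.143 over the 5 members, n = 4). Oas1a held 16.4% ± 5.95 with CYR61 and 31.2% ± 12.7 in control (exact permutation p = 0.0857, adjusted p = 0.214, n = 4). Oas2, Oas3 and Oasl1 held 12.8%, 13.1% and 4.06% with CYR61 and 15.4%, 8.23% and 2.12% in control. No member's share passed after adjustment.

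Mitotic cells, defined by at least 3 of 10 mitotic markers such as Top2a and Mki67, were compared with the other cells within each library. This split also follows depth. Mitotic cells had medians of 9251, 6714, 9011.5 and 19570 UMIs in CYR61 replicates 1 to 4, and the other cells 1143, 1424, 780 and 790. The part of depth in the comparison was not tested. In CYR61 libraries mitotic cells had 529 ± 124 CPM of the 5 members and the other cells 449 ± 93.7 CPM. The difference was 79.2 CPM (SD 30.2), higher in 4 of 4 libraries, with an exact sign-flip permutation p of 0.125, the smallest that n = 4 allows. It rested on 4 to 309 mitotic cells per library, the 4 being those of CYR61 replicate 3, with 37 family UMIs. With at least 2 or at least 4 markers it was 27.5 and 28.3 CPM, and it was -87.7 CPM in cells with 90% of their UMIs at home. In control replicates 1 to 4 mitotic cells had 43.0, 90.4, 97.6 and 78.2 CPM of the 5 members. The other control cells had 34.1, 73.8, 46.5 and 33.6 CPM. These control values for mitotic cells rest on 23, 55, 15 and 11 family UMIs.

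The other genes of the pathway were counted by list. By the same edgeR call 1.12% of all genes tested rose and 0.0384% fell. Of the Oas1 paralogues, 3 were tested and 1 rose. Oas1b, the mouse flavivirus resistance gene, which GENCODE lists as a polymorphic pseudogene, had 155 UMIs in CYR61 libraries and 3 in control libraries. The ratio of its pooled counts was 12.5 (exact 95% interval 4.19 to 61.2, counting error only), and its edgeR adjusted p was 0.0388. Oas1g had 33.4 ± 9.63 CPM with CYR61 and 6.62 ± 6.81 CPM in control (log2 fold change 2.61, edgeR adjusted p = 0.159), and Oas1c 11.7 ± 1.20 CPM with CYR61 and 3.90 ± 3.89 CPM in control (1.58, adjusted p = 0.547). Neither passed. Oas1g did pass with the Xist and Y libraries as a block (edgeR adjusted p = 0.0033), without control replicate 3 (0.0345), without the count filter (6.1e-07) and in DESeq2 (0.0188). The Oas1b call held in 7 of the 14 alternatives that tested it.

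Neither of the 2 genes listed beside 2-5A passed in edgeR. Pde12, which degrades 2-5A, had 18.3 ± 4.94 CPM with CYR61 and 18.4 ± 4.58 CPM in control (0.05, SE 0.35). Abce1, which acts in ribosome recycling, had 72.2 ± 27.4 CPM with CYR61 and 86.2 ± 35.3 CPM in control (-0.18, SE 0.32). The edgeR adjusted p was 0.9999 for each, and the sign of each turned under some of the alternatives given in the closing section.

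Of the 8 tested genes among other double-stranded RNA sensors and their adaptor, 5 rose and none fell. Over all genes tested 1.12% rose and 0.0384% fell. Zbp1, a sensor of Z-form nucleic acid, had 116 ± 45.1 CPM with CYR61 and 12.3 ± 5.62 CPM in control (log2 fold change 3.21, edgeR adjusted p = 0.000349). Ddx58, which encodes RIG-I, had 119 ± 19.2 CPM with CYR61 and 20.1 ± 7.41 CPM in control (2.56). Ifih1, which encodes MDA5, changed by 1.62, Dhx58, which encodes LGP2, by 1.65, and Eif2ak2, which encodes the kinase PKR, by 1.30 on the log2 scale. Eif2ak2 had 214 ± 8.06 CPM with CYR61 and 89.1 ± 34.7 CPM in control (edgeR adjusted p = 0.0238). Adar (1.08, adjusted p = 0.117), Tlr3 (1.39, 0.741) and Mavs (0.04, 0.9999) did not pass in edgeR. Adar did pass with the Xist and Y libraries as a block (edgeR adjusted p = 0.0270), without the count filter (0.00565) and in DESeq2 (0.0117). The call of Eif2ak2 held in 4 of the 8 fits that left out 1 library and that of Dhx58 in 6, while Zbp1, Ddx58 and Ifih1 passed in all 8.

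Of 10 tested genes of interferon signalling, 4 rose and none fell, beside 1.12% and 0.0384% of all genes tested. Stat2 and Irf9, which encode parts of the transcription factor complex, rose with log2 fold changes of 2.15 and 1.03, and Irf9 had an edgeR adjusted p of 0.0410 but passed in none of the 8 fits that left out 1 library. Irf7, a regulator of interferon genes, had 456 ± 317 CPM with CYR61 and 18.3 ± 8.75 CPM in control (4.63, edgeR adjusted p = 0.000533). Usp18, which dampens interferon receptor signalling, had 42.6 ± 15.7 CPM with CYR61 and 2.67 ± 2.50 CPM in control (4.20). The receptor chains and kinases did not pass, with log2 fold changes of 0.10 for Ifnar1, 0.42 for Ifnar2, -0.02 for Jak1 and -0.20 for Tyk2. Irf1 (0.54, edgeR adjusted p = 0.915) and Irf3 (-0.03, 0.9999) did not pass either. Of the 9 interferon genes sought, 2 were listed, Ifnb1 with 2 UMIs in CYR61 and 1 in control libraries and Ifng with none.

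**Figure D5:**
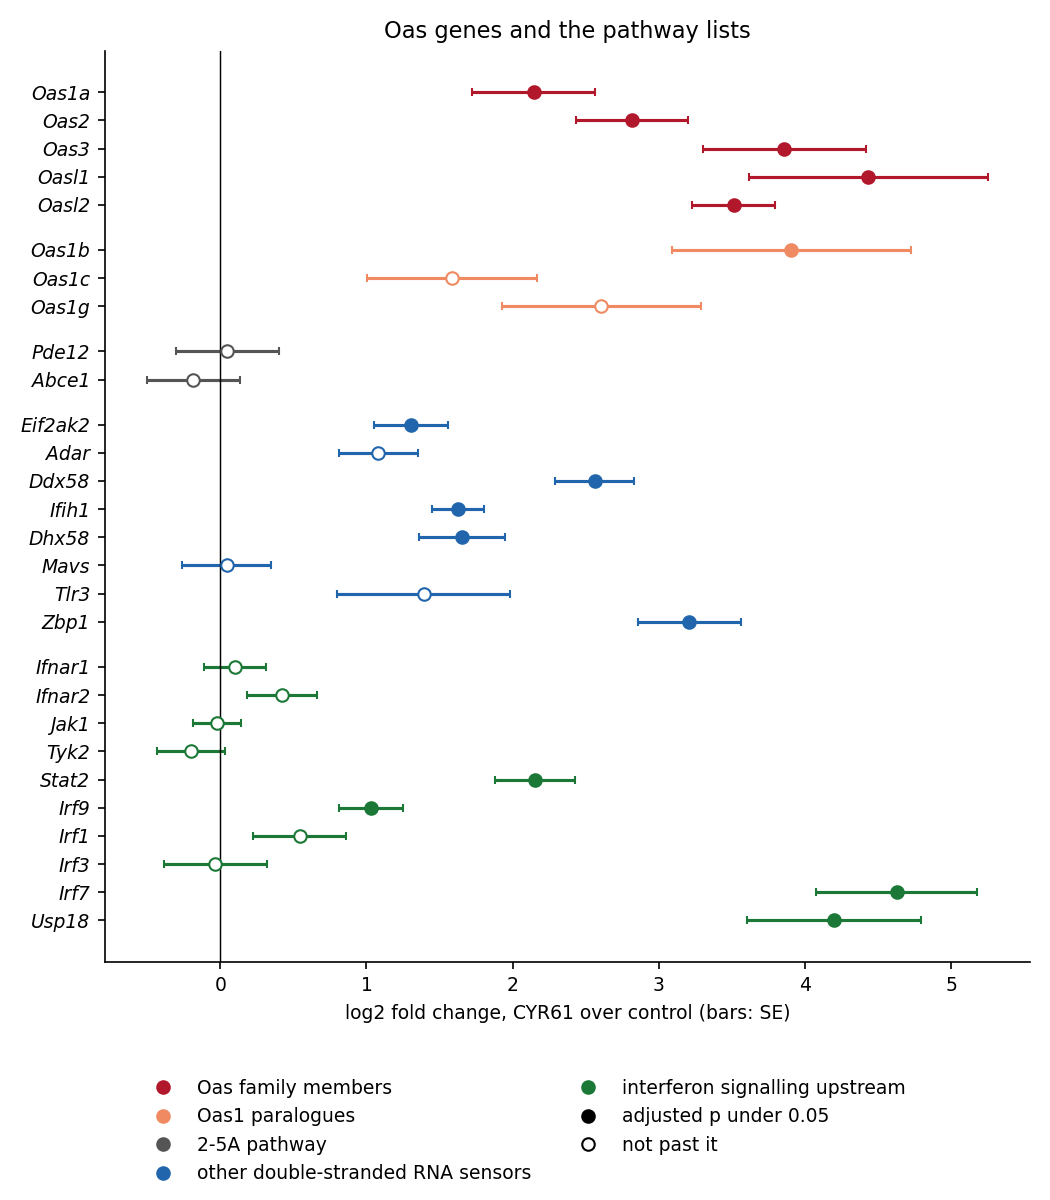
Log2 fold change of CYR61 over control for the 5 members and the tested genes of the 4 pathway lists, with bars for the SE of the edgeR fit and filled points for adjusted p under 0.05. The members range from 2.14 to 4.43, the 2 genes of the 2-5A list from -0.18 to 0.05, and the interferon signalling list from -0.20 to 4.63.

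The genes most like the family across the 8 libraries were ranked by Pearson's r of log2 CPM with the mean log2 CPM of the members, among 7105 genes with at least 20 CPM in either group. The first 4 were Ifit3b (r = 0.991), Fcgr1 (0.989), Rnf213 (0.988) and Znfx1 (0.983). All these genes share the difference between the groups, and r is given as a description. Fcgr1, the high-affinity IgG receptor, had 460 ± 69.1 CPM with CYR61 and 103 ± 17.3 CPM in control (log2 fold change 2.19, edgeR adjusted p = 8.47e-05). Ifit3b, an interferon-induced gene, had 456 UMIs in CYR61 and 2 in control libraries, a ratio of pooled counts of 55.1 (exact 95% interval 15.2 to 456). Rnf213 changed by 2.09 and Znfx1, an RNA helicase-like gene, by 1.81 on the log2 scale.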

How the data were processed

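The authors deposited whole-number UMI counts per gene and cell barcode, 5000 barcodes per library, with no cell calls. The build is mm10, per the submitters' processing notes. Aligner, counter, annotation and use of strand: not given in the sources used here. Groups and replicate numbers follow the labels, and date stamps follow the tables' names. Barcodes with 300 or more genes detected and no more than 20% of UMIs mitochondrial were kept as cells, each only in the table of its date stamp holding most of its UMIs. Doublets were not called. Counts were summed per library over these cells and tested with edgeR 4.0.16 in R 4.3.3 (TMM, filterByExpr, quasi-likelihood, Benjamini-Hochberg over 10422 genes), with DESeq2 1.42.0 as an alternative. CPM is the deposited count scaled to a common total of UMIs of those cells, without TMM. Libraries of a group differed by more than counting noise and each was counted as 1 replicate, although repeat captures of the same culture could differ as much. The chi-square of gene counts per degree of freedom, which also grows with depth, was 4.93 between CYR61 replicates 1 and 2. It was 7.26 between CYR61 replicates 3 and 4, and 26.6 to 43.8 across these pairs. Control libraries gave 5.42 between the Xist replicates 2 and 3, 8.91 between the Y replicates 1 and 4, and 11.1 to 12.6 across these pairs. In both groups the closer pairs thus shared Xist status, and in controls they crossed the date stamps. Whether each pair came from 1 source was not tested. The p-values make no allowance for such pairs. Exact two-sided permutation over 70 assignments of libraries tested shares of cells (scipy 1.17.1), and expected shares at 500 UMIs were computed without random draws. Co-detection is described without a test. Intervals and floors (3 counts) cover counting error only. The members, lists and tests were chosen with earlier results of these data known. The text names every member, called genes of each pathway list, up to 3 with the smallest p from a list with none called, other tested list genes by value, and the genes most like the family; chromosomal neighbours are given by range. Some genes are not reported here. The edgeR step was tested on simulated data.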

Additional observations from a re-analysis of the deposited data

Results flagged for a closer look

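Single libraries stood apart from the other 3 of their group in 4 of 67 sets of values checked, where chance gives about 1 in 20. Oasl1 in CYR61 replicate 4 was 48.1 CPM, and the nearest CYR61 library was at 14.8 CPM. Its thinned share of cells there was 1.72% against 0.526% in the nearest, and its share of family UMIs 8.32% against 3.07%. The thinned share of cells with Oas2 in control replicate 2 was 0.353%, and the nearest control library was at 0.190%.

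Family RNA was also present in barcodes outside the cells analysed. Barcodes with under 100 genes held 173.5, 464 and 387 CPM of the 5 members in CYR61 replicates 2, 3 and 4, against at most 41.5 CPM in control libraries. These values rest on 4, 61 and 34 family UMIs. Barcodes set aside for their mitochondrial share held 281, 265 and 428 CPM in CYR61 replicates 1, 2 and 4, against at most 66.6 CPM in control libraries. The counts behind them were 46, 115 and 10 family UMIs. All control libraries together held 7 such UMIs, and the highest control value rests on 3. CYR61 replicate 3 had 1 family UMI in 3 such barcodes.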

How the results depend on the processing

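Each of the 5 members was higher with CYR61 in every alternative run that gave it a value, and Oasl1 fell under the count filter in cells with 90% of UMIs at home and in barcodes listed in 1 table. The number of members called was 5, and it was 0 with all kept cells, 1 in the earlier and 3 in the later libraries alone, and 3 to 5 leaving out each library (3 without CYR61 replicate 4). Summing CYR61 replicates 1 and 2, chosen after seeing the data, left 4. Called genes of the pathway lists numbered 10, and 0 with all kept cells, 5 in the later libraries alone and 6 to 9 leaving out each library (6 without control replicate 1 or CYR61 replicate 4). Over all genes 121 were called, against 0 with all kept cells, 184 with DESeq2, 239 without the count filter, 231 with Xist and Y libraries as a block, 86 in the earlier and 83 in the later libraries alone, and 74 to 127 leaving out each library (74 without CYR61 replicate 4). The replicate block called 5 members, 8 list genes and 112 genes in all. Same-numbered libraries had correlations of -0.199, 0.325, -0.0878 and 0.315, not all over 0.1, so the numbers were not taken as pairs, although same-numbered libraries also share a date stamp. The difference in thinned share of cells with any member was 15.5 to 17.7 percentage points leaving out each library (exact permutation p = 0.0571, the smallest that 3 against 4 allows). The co-detection ratio was 2.34 without thinning. The difference in family CPM between mitotic and other cells was -87.7 in cells with 90% of UMIs at home, and 66.4 to 89.3 leaving out each library. The difference in Oas3's share of family UMIs was -1.39 points with all kept cells. The log2 fold change of Pde12 was -0.054 with 90% of UMIs at home, -0.024 with at least 500 genes, -0.56 in the later libraries, -0.13 to 0.23 leaving out each library (below 0 without control replicates 1 or 2 or CYR61 replicate 2), and -0.020 with CYR61 replicates 1 and 2 summed. That of Abce1 was 0.18 in the earlier libraries and -0.38 to 0.086 leaving out each library (above 0 without control replicate 2 or CYR61 replicate 3). The cause of these shifts was not tested, apart from fewer libraries where some were left out. Control depth, 842528 to 3436577 UMIs, limits Oasl1 and Oas3, with 6 and 33 control UMIs.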
